A study of Mus musculus with 2 samples.

Results

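The 9 genes described here, Gata1, Klf1, Tal1, Epor, Tfrc, Slc25a37, Alas2, Fech and Slc4a1, are regulators, receptors, heme synthesis genes and a membrane protein gene of the red cell lineage, and were taken by symbol from the 21937 mouse genes of a single-cell RNA-seq library of E11.5 mouse embryos. All 9 were measured. The study asked how early, and in how many of a founder embryo's cells, a piggyBac transposon carrying an EGFP cassette with a DNA barcode is inserted. Every embryo carried this transgene, driven by the CAG promoter, which is active in most cell types, on a background that the methods give as C57BL/6J, and no embryo without the transgene was in the library. The founder suspensions F0_8 and F0_9 were 1 embryo each, in which the insertion was made and not all cells carry the same copies. The suspension F1_1 was 1 embryo of the next generation, and F1_mix held the cells of 2 such embryos mixed by the authors. The 4 suspensions were marked with lipid-anchored oligos (CellPlex) and sequenced as 1 library, so any shared library effect is the same for all of them. They are the replicates here, and founder against F1 means 2 suspensions against 2, which differ in genotype history and also in embryo. Of 6006 barcodes assigned to a suspension, the 5678 cells of the authors' table were used, and no barcode was shared between suspensions.

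As background, GATA1, TAL1 and KLF1 are the DNA-binding factors that switch on most red cell genes, GATA1 at GATA words, TAL1 in a complex with it, and KLF1 at CACCC words. The receptor of erythropoietin, EPOR, carries the survival signal of erythroid progenitors, and the transferrin receptor TFRC brings in iron. Mitoferrin 1 (Slc25a37) moves that iron into mitochondria, ALAS2 makes the first intermediate of heme there, and ferrochelatase (Fech) puts iron into the finished ring, which joins globin chains to form hemoglobin. SLC4A1, or band 3, is the anion exchanger that anchors the membrane skeleton. In the mouse embryo at this stage, primitive red cells from the yolk sac circulate with embryonic globins, while the fetal liver begins to make definitive red cells with adult globins.

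Red cells were the authors' types Erythroblast, 144 cells, and Erythrocyte, 60 cells. F0_8 gave 64 and 12 of them, F0_9 gave 52 and 23, F1_1 gave 7 and 9, and F1_mix gave 21 and 16. The medians were 29076 and 24289 gene UMIs per cell, where a UMI stands for 1 captured mRNA molecule. Globin genes held 12.3%, 15.7%, 0.830% and 2.08% of the Erythroblast UMIs in F0_8, F0_9, F1_1 and F1_mix, against 80.9%, 75.2%, 59.2% and 63.8% of the Erythrocyte UMIs. The types also differed in which globins they held. The embryonic genes Hbb-y, Hbb-bh1 and Hba-x made up 67.2% to 87.9% of the globin UMIs of Erythrocyte in the 4 suspensions, against 0.745%, 3.77% and 4.95% in Erythroblast of F0_8, F0_9 and F1_mix. In Erythroblast of F1_1 the share was 69.0% of only 2339 globin UMIs, and was 5.37% in 6 of its 7 cells, the other cell having 30 to 60% globin. The type contrast below thus sets mostly adult-globin cells against mostly embryonic-globin cells, as well as low against high globin share. Maturation stage and primitive or definitive lineage cannot be told apart in it. Both types had UMIs of all 11 measured genes of the erythroid marker list, and neither had any of the macrophage genes C1qa, C1qb, C1qc, Csf1r and Mrc1, of the liver genes Alb and Afp, or of the endothelial genes Cdh5 and Emcn. Other genes of these lists gave UMIs: in Erythroblast the macrophage list held 25 (19 of Fcer1g), the liver list 5 and the endothelial list 324, of which 317 were Egfl7, and in Erythrocyte they held 0, 1 and 4. Megakaryocyte marker genes gave 104 UMIs in Erythroblast (5 of 6 genes with a UMI), at a summed level of 0.181 to 0.212 UMIs per 10000 UMIs outside globin genes in 3 suspensions and of 1.18 in F1_1, and 13 UMIs in Erythrocyte. The 6 mesenchyme markers gave 159 and 17 UMIs in Erythroblast and Erythrocyte and the 6 neuron markers 135 and 38. The summed neuron level was 0.143 to 0.716 in Erythroblast and 0.112 to 2.05 in Erythrocyte, highest in F0_9 in both, against 17.4 over the other cell types. The part of these markers in the results was not tested.

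Because a single gene family took up to 80.9% of the UMIs, the denominator matters for every comparison. Levels below are UMIs per 10000 gene UMIs outside the 10 globin genes unless stated otherwise, and levels over all gene UMIs and UMIs per cell are set beside them. The UMIs outside globin numbered 3861806 in Erythroblast and 476650 in Erythrocyte, of which only 45301 were in F0_8. The counting error of a gene follows its own UMIs, and for the genes scarce in Erythroblast it was widest in F1_1, where Alas2 had 8 UMIs in Erythroblast and 216 in Erythrocyte and Slc4a1 had 5 and 66. The kit reads the 3′ end of each molecule, so a level does not grow with the length of a gene. Intervals are exact Poisson intervals at 95% and cover counting error only.

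In GRCm38.p6 the factor genes are Gata1 (ENSMUSG00000031162, chrX:7959260-7976663), Klf1 (ENSMUSG00000054191, chr8:84901982-84905291) and Tal1 (ENSMUSG00000028717, chr4:115056426-115071755). The receptor genes are Epor (ENSMUSG00000006235, chr9:21958897-21963576) and Tfrc (ENSMUSG00000022797, chr16:32608896-32632794). The heme genes are Slc25a37 (ENSMUSG00000034248, chr14:69241848-69285544), Alas2 (ENSMUSG00000025270, chrX:150547417-150570622) and Fech (ENSMUSG00000024588), and the membrane gene is Slc4a1 (ENSMUSG00000006574, chr11:102348820-102365281).

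The promoters of 4 members are shown, because Alas2 had the greatest difference between the red cell types while Gata1, Klf1 and Epor are the genes on the regulatory side that it is read against. Each is the 250 bases before the transcript start, 5′ to 3′ on the strand of the gene, from RefSeq (GRCm38.p6), with matches to GATA words (AGATAA or AGATAG or TGATAA or TGATAG) and CACCC words (CCACACCC or CCGCACCC or CCCCACCC) on either strand in capitals. The positions are chrX:150547167-150547416 on the plus strand for Alas2, chr8:84901732-84901981 on the plus strand for Klf1, chr9:21963577-21963826 on the minus strand for Epor and chrX:7967911-7968160 on the minus strand for Gata1.
Alas2: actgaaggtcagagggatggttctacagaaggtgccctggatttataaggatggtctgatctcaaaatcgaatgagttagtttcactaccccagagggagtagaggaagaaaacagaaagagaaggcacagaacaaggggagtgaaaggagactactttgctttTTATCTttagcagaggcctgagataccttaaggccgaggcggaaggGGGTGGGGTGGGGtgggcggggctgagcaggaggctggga
Klf1: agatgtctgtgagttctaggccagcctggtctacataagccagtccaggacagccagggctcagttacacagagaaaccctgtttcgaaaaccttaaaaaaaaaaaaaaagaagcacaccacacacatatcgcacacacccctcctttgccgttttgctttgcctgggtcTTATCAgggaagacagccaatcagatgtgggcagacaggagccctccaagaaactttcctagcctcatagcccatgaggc
Epor: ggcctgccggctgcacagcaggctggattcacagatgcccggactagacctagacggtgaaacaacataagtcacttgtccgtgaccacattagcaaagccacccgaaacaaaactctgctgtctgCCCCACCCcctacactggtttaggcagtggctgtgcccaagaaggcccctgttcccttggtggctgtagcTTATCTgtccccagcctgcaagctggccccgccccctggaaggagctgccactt
Gata1: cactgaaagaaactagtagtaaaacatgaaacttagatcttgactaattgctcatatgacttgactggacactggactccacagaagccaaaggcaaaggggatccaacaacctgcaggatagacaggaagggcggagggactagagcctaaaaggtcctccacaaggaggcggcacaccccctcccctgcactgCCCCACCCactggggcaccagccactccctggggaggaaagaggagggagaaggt

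A GATA word stood 86 to 81 bases before the start of Alas2, 80 to 75 before that of Klf1 and 54 to 49 before that of Epor. Alas2 held 2 CACCC words that overlap each other, at 40 to 33 and 35 to 28 bases before the start, Epor held 1 at 124 to 117, and Gata1 held 1 at 55 to 48. These letters are common: 26.5% of the 32851 promoters in the table held a GATA word in the same 250 bases and 13.1% held a CACCC word. Of the other members in the table, Tal1 had a GATA word before 1 of its 2 starts and Tfrc a CACCC word before each of 2. A match is a description of letters and not a binding site, and the table was not used for Slc25a37, Fech and Slc4a1.

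Of the factor genes, Gata1 and Klf1 overlapped between the red cell types outside globin and Tal1 was higher in Erythrocyte. Gata1 stood at 1.59, 1.86, 1.47 and 1.42 UMIs per 10000 in Erythroblast of F0_8, F0_9, F1_1 and F1_mix, and at 1.32, 2.29, 1.996 and 1.56 in Erythrocyte of the same suspensions. The ranges overlapped, and Erythrocyte was the higher in 3 of 4 suspensions. Klf1 stood at 4.25, 3.83, 2.04 and 2.95 in Erythroblast and at 2.21, 4.02, 2.87 and 4.35 in Erythrocyte, also overlapping. Tal1 stood at 1.73, 2.03, 1.07 and 1.14 in Erythroblast and at 1.99, 2.76, 2.64 and 3.40 in Erythrocyte. It was the higher in Erythrocyte in all 4 suspensions, by 1.15 and 1.36 times in the founders and by 2.46 and 2.97 times in F1_1 and F1_mix, although the lowest Erythrocyte value, that of F0_8, lay within the Erythroblast range.

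Counted per cell, the same genes were lower in Erythrocyte. A cell held on average 4.38 Gata1 UMIs in Erythroblast (95% interval 4.05 to 4.74) and 1.47 in Erythrocyte (1.18 to 1.81), and 9.92 and 2.92 UMIs of Klf1. Over all gene UMIs the Gata1 level was 1.39 to 1.57 in Erythroblast and 0.253 to 0.815 in Erythrocyte, and the Klf1 level 2.02 to 3.73 and 0.421 to 1.58, with no overlap for either gene. Tal1 differed in this respect. Per cell it stood at 4.34 UMIs in Erythroblast and 0.75 in Erythrocyte of F0_8 and at 4.75 and 1.52 in F0_9, but at 4.29 and 3.67 in F1_1 and at 4.14 and 3.81 in F1_mix.

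Of the receptor genes, Epor stood at 1.56, 1.55, 0.572 and 1.25 UMIs per 10000 outside globin in Erythroblast and at 1.55, 0.946, 1.12 and 2.90 in Erythrocyte. It was the higher in Erythrocyte in the 2 F1 suspensions and the lower in F0_9, while F0_8 was nearly equal (0.989 times, on 7 Erythrocyte UMIs). Tfrc was the higher in Erythrocyte in the 2 F1 suspensions and the lower in both founders. It stood at 3.96 and 4.42 in Erythroblast of the founders against 1.55 and 2.76 in their Erythrocyte cells, and at 1.40 and 2.47 in Erythroblast of F1_1 and F1_mix against 2.40 and 4.13 in Erythrocyte. Per cell Tfrc was lower in Erythrocyte in every suspension, at 0.583, 1.52, 3.33 and 4.62 UMIs against 9.94, 10.3, 5.57 and 8.95.

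The genes of iron import and heme synthesis separated the types without overlap outside globin. Slc25a37 stood at 6.01, 7.11, 0.858 and 1.57 in Erythroblast and at 28.3, 30.02, 10.9 and 18.6 in Erythrocyte. Alas2 stood at 3.19, 4.05, 0.286 and 0.434 and at 45.03, 32.8, 17.2 and 20.6, which is 14.1 and 8.10 times in the founders and 60.3 and 47.4 times in F1_1 and F1_mix. Fech stood at 4.60, 5.62, 0.787 and 2.10 and at 25.2, 15.9, 7.82 and 9.15. The membrane gene Slc4a1 was likewise higher in Erythrocyte, at 4.14, 4.53, 0.179 and 1.05 and at 16.3, 14.1, 5.27 and 9.32. The Erythroblast values of Alas2 and Slc4a1 in F1_1 lean on 1 of its 7 cells, the cell with 30 to 60% globin, which held 6 of the 8 Alas2 UMIs and all 5 of Slc4a1. In the other 6 cells Alas2 stood at 0.0726 (0.00879 to 0.262) and Slc4a1 had 0 UMIs, so the multiple for Alas2 in F1_1 moves with that single cell. In each of these 4 genes the F1 suspensions had the lower level in both types.

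**Figure D1:**
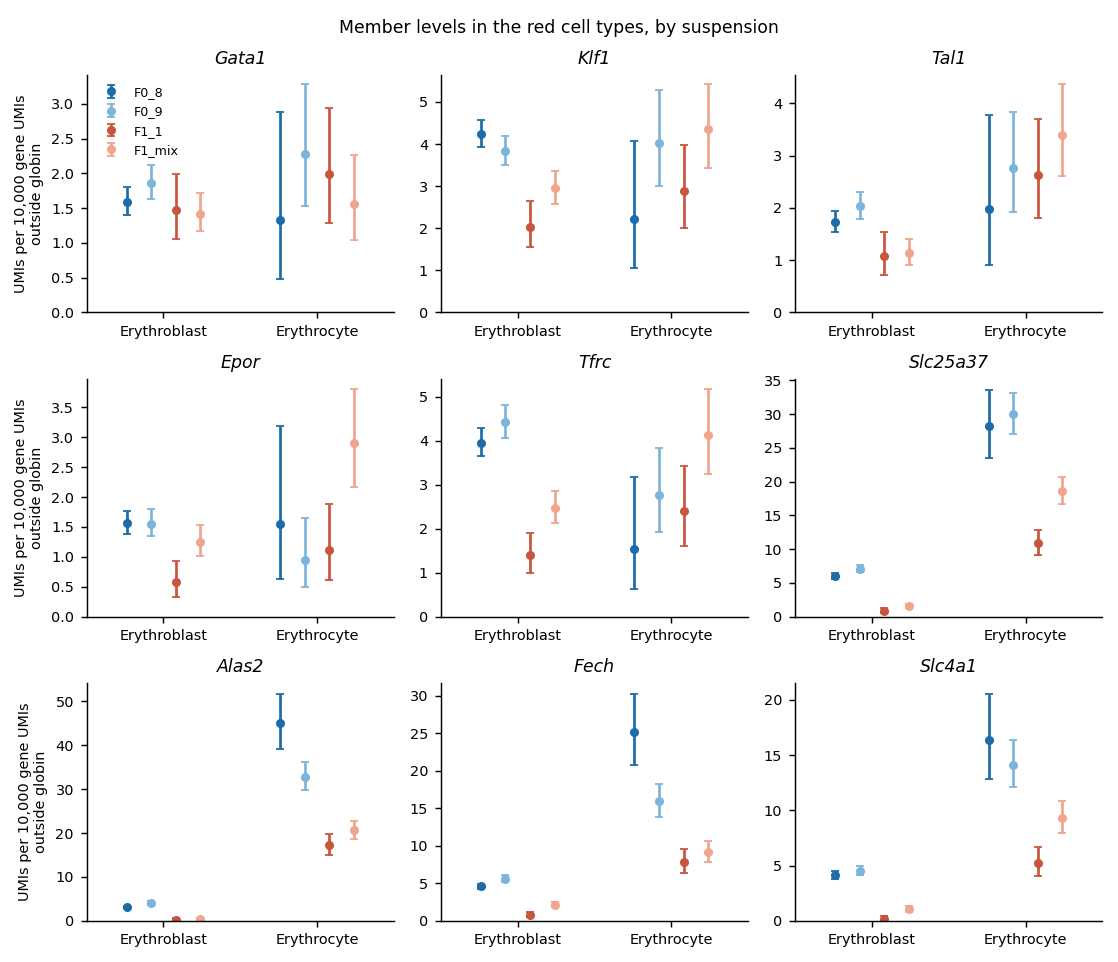
Levels of the 9 genes in UMIs per 10000 gene UMIs outside globin genes, in Erythroblast and Erythrocyte cells of each suspension; points are sums over cells and bars exact Poisson 95% intervals. Slc25a37, Alas2, Fech and Slc4a1 do not overlap between the types (for Alas2, 0.286 to 4.05 against 17.2 to 45.03), while Gata1, Klf1, Tal1, Epor and Tfrc do.

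Per cell, only Alas2 of this group was higher in Erythrocyte in every suspension. A cell held 8, 9.46, 1.14 and 1.57 Alas2 UMIs in Erythroblast and 17, 18.1, 24 and 23.1 in Erythrocyte. Fech was at 11.53 and 13.1 UMIs per cell in Erythroblast of the founders and at 9.5 and 8.78 in their Erythrocyte cells, and went the other way in F1_1 (3.14 to 10.9) and F1_mix (7.62 to 10.2). Slc4a1 showed the same reversal, from 10.4 and 10.6 to 6.17 and 7.78 in the founders and from 0.714 and 3.81 to 7.33 and 10.4 in F1_1 and F1_mix. The lower levels of the 4 genes in F1 Erythrocyte cells were thus not matched by lower counts per cell. Alas2 and Fech had more UMIs per cell in both F1 suspensions than in both founders, and Slc25a37 (15.1 in F1_1 and 20.9 in F1_mix, against 10.7 and 16.6) and Slc4a1 had more in F1_mix and a value between the founders in F1_1. Beside this stands a larger pool of other UMIs in F1, with a median of 14324 and 11325 UMIs outside globin per cell against 3922 and 5103. UMIs in a sum over cells cannot tell less of an mRNA from fewer captured molecules.

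**Figure D2:**
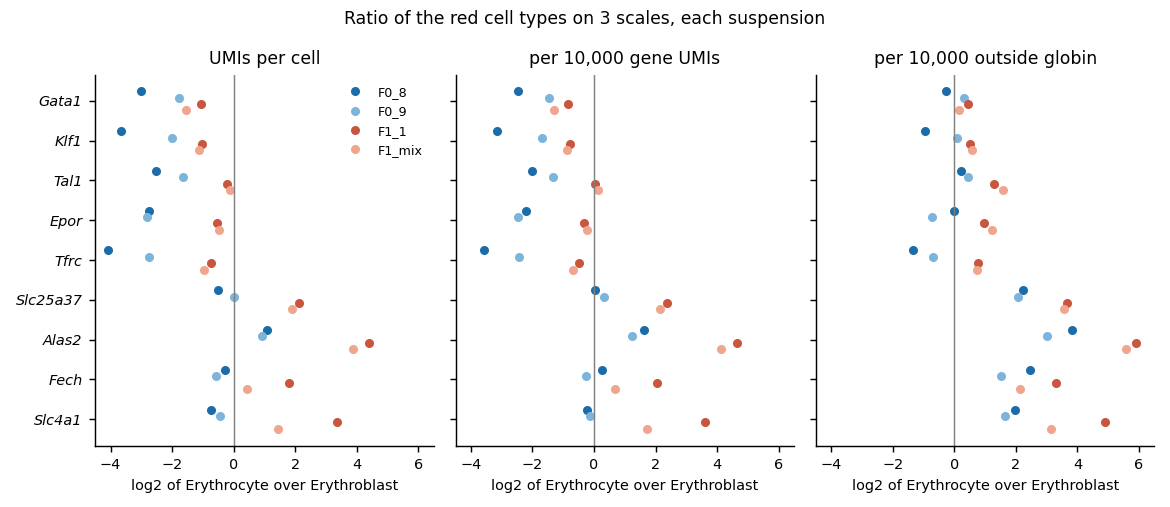
Log2 of the Erythrocyte value over the Erythroblast value for each gene and suspension, as UMIs per cell, per 10000 gene UMIs and per 10000 gene UMIs outside globin genes. Alas2 lies above 0 in all 4 suspensions on each scale, while Gata1 and Klf1 lie below 0 on the first 2 scales and around 0 on the third.

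The type difference was tested with edgeR on the 8 sums, with suspension as a block and TMM scaling, which sets library sizes by the bulk of the genes. Both types were drawn by the authors from the expression of these same cells, so a p-value here says only whether a difference exceeds the spread between suspensions. Of 4568 genes tested, 24.0% passed an adjusted p of 0.05, 12.7% higher and 11.3% lower in Erythrocyte. Of the 9 members, 5 passed, all higher in Erythrocyte. Alas2 had a log2 difference of 4.82 ± 0.45 (SE, adjusted p = 2.21e-06), Slc25a37 of 3.26 ± 0.34, Slc4a1 of 3.06 ± 0.40, Fech of 2.71 ± 0.30 (adjusted p from 6.42e-06 to 5.42e-05 for these) and Tal1 of 1.35 ± 0.30 (adjusted p = 0.00389). Without F1_mix the adjusted p of Tal1 was 0.0562. Gata1 (0.63 ± 0.28, adjusted p = 0.112), Klf1 (0.55 ± 0.29, 0.195), Epor (0.84 ± 0.35, 0.0923) and Tfrc (0.39 ± 0.34, 0.443) did not pass, but Klf1 passed without F0_8 (0.84, adjusted p = 0.0277) and Epor without F0_9 (1.22, 0.0435).

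Scaled by all gene UMIs, the direction of 5 members turned. The median log2 over all genes tested was then -2.19, against -0.14 with TMM and -0.47 outside globin, and 91.5% of genes were called, 90.2% lower and 1.31% higher. Gata1 (-1.45), Klf1 (-1.55), Epor (-1.26) and Tfrc (-1.71) were called lower among these. Tal1 stood at -0.74 (adjusted p = 0.0875), Fech at 0.62 (0.152) and Slc4a1 at 1.002 (0.0741), none of them called. Only Alas2 (2.77 ± 0.56, adjusted p = 0.000304) and Slc25a37 (1.18 ± 0.46, 0.0229) of the members were called higher on both scales, TMM and all gene UMIs, and all 9 lay above the median of the genes tested.

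A narrower comparison, added after the values were seen, took Erythroblast cells with 10% or more globin from the founders only (30 and 28 cells), since F1_1 and F1_mix had 1 such cell each. Here 15.8% of 4115 genes passed, 9.26% higher and 6.59% lower. Alas2 (2.45 ± 0.29, adjusted p = 6.46e-15), Fech (1.51 ± 0.29), Slc25a37 (1.44 ± 0.28) and Slc4a1 (1.09 ± 0.29, adjusted p = 0.00200) were again called higher in Erythrocyte, and Tfrc was called lower (-1.22 ± 0.36, adjusted p = 0.00771). Gata1 (0.17), Klf1 (-0.31), Tal1 (0.17) and Epor (-0.30) had adjusted p values of 0.628 to 0.843. This fit rests on 2 embryos.

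Other genes of heme synthesis went the way of Alas2 and Fech by TMM over all suspensions. Of 7 further enzymes, 6 were tested and 5 were called higher in Erythrocyte, with a list median of 1.69 against -0.14 over all genes. Urod, the decarboxylase of uroporphyrinogen, was at 4.39 UMIs per 10000 in Erythroblast and 10.7 in Erythrocyte (log2 2.19 ± 0.28, adjusted p = 5.01e-05), and Uros, the synthase before it, at 1.44 and 2.90 (2.12 ± 0.39). Ppox, the oxidase of protoporphyrinogen, had a difference of 1.65 ± 0.33. Cpox, the oxidase of coproporphyrinogen and the only tested enzyme not called, had a log2 difference of 0.67 (adjusted p = 0.127). Over all gene UMIs none of these enzymes was called higher and Cpox was called lower, so on that scale Alas2 was the only enzyme of the pathway called higher. In the founders-only comparison 1 of the 6, Urod, was called, with a list median of 0.33 against -0.12 over all genes. There 9.26% of all genes were called higher. Of 10 tested genes of mitochondrial transport and iron-sulfur clusters, 3 were called higher with TMM: Abcb10, a mitochondrial transporter that binds mitoferrin (1.74 ± 0.31), Glrx5 (1.30 ± 0.25) and Iscu (1.25 ± 0.29), both of cluster assembly. With all gene UMIs none was called higher and 8 were called lower, where 90.2% of all genes were lower. In the founders-only comparison 1 of the 10, Iscu, was called higher.

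Iron handling showed storage genes among those called. Of 8 genes tested, 4 were called higher by TMM and none lower, beside 12.7% and 11.3% of all genes. With all gene UMIs 1 was called higher and 4 lower, beside 1.31% and 90.2% of all genes. In the founders-only comparison 3 of 9, Fth1, Ftl1 and Ncoa4, were called higher, beside 9.26% of all genes. Ncoa4, which delivers ferritin to lysosomes, stood at 0.720 UMIs per 10000 in Erythroblast and 4.97 in Erythrocyte (log2 3.59 ± 0.32) and was called higher on both scales. The ferritin chains Fth1 (98.6 and 423 UMIs per 10000, log2 2.96 ± 0.41) and Ftl1 (2.21 ± 0.34) and the exporter Slc40a1 (1.51 ± 0.45) were called with TMM but not with all gene UMIs. Of 4 tested genes of heme export and breakdown, Blvrb (1.76 ± 0.29), the biliverdin reductase B, and Bach1 (1.55 ± 0.43), a repressor that binds heme, were called higher by TMM. With all gene UMIs neither was called and 2 others of the list were called lower. In the founders-only comparison 0 of 3 were called.

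Other erythroid regulators went in both directions. Of 19 tested, 4 were called higher and 5 lower with TMM. Myb, the progenitor factor, had 228 UMIs in Erythroblast and 1 in Erythrocyte (log2 -4.61 ± 0.88), Bcl11a, the repressor of embryonic globin genes, went from 2.57 to 0.126 UMIs per 10000 (-3.85 ± 0.59) and Runx1 from 1.55 to 0.210 (-2.45 ± 0.48), and these 3 were lower on both scales. E2f2 (2.16 ± 0.37) was called higher with TMM but not with all gene UMIs, where none of the list was higher and 16 of 19 were lower, beside 90.2% of all genes. In the founders-only comparison 1 of 17 was called higher and 3 lower. Myb, Bcl11a, Runx1 and E2f2 were not among those called. Among cytokine signalling genes, of 5 tested, Bcl2l1, the survival gene for BCL-XL (3.69 ± 0.41), and the kinase gene Pim1 (3.05 ± 0.26) were higher on both scales, and Cdc25a, a cell cycle phosphatase gene (-1.55 ± 0.50), was lower on both. In the founders-only comparison Bcl2l1 and Pim1 were again called higher and Cdc25a was not called.

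Most membrane and late maturation genes were, like Slc4a1, higher in Erythrocyte in the TMM fit. Of 16 tested membrane and cytoskeleton genes, 14 were called higher and 1, Cd44, lower, with a list median of 1.83. Cd44 had 137 UMIs in Erythroblast and 0 in Erythrocyte, and Epb42, for protein 4.2 that binds band 3 (2.83 ± 0.37), and Kel (2.55 ± 0.30) were among those called higher. With all gene UMIs none was called higher and 5 of 16 were called lower, beside 90.2% of all genes, and the list median was -0.26 against -2.19 over all genes. In the founders-only comparison 7 of 15 were called higher, with a list median of 0.80, beside 9.26% of all genes. All 11 tested genes of late maturation were called higher, among them Bpgm, for the enzyme of 2,3-bisphosphoglycerate (0.391 to 19.1 UMIs per 10000, log2 6.20 ± 0.43), and Ube2l6 (4.18 ± 0.31), Xpo7 (4.08 ± 0.55) and Ube2o (3.33 ± 0.43), and these 4 were among the 5 called on both scales. All 8 tested globin genes were called higher, with Hbb-y (14.18 ± 1.85), Hba-x (9.82 ± 1.11), Hbb-bh1 (7.21 ± 0.75) and Hba-a2 (5.19 ± 0.71) in front. With all gene UMIs 6 of these 8 were called higher. In the founders-only comparison 9 of 11 late maturation genes and 6 of 8 globin genes were called higher.

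Within Erythroblast, the members were then followed along the globin share of single cells, a description for which no test was made. In founder cells with under 2%, 2 to 10%, 10 to 30% and 30 to 60% globin (23, 35, 34 and 21 cells), Alas2 was at 0.0513, 1.39, 5.65 and 15.4 UMIs per 10000 outside globin, with non-overlapping intervals. Slc4a1 was at 0.103, 3.14, 6.92 and 13.9, and Slc25a37 at 0.5004, 4.48, 10.1 and 21.8, in the same cells. In the cells with the least globin Alas2 had only 4 UMIs and Slc4a1 only 8 in all 23 cells, all of them in F0_8. Fech was already at 1.58 in the first group and reached 13.4 at 30 to 60%. A further 3 founder cells had 60% or more globin, with Alas2 at 42.1, Slc4a1 at 22.8 and Slc25a37 at 38.1.

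Receptor and factor genes were already present in the cells with little globin. Gata1 was at 1.26, 1.71, 1.77 and 2.62 UMIs per 10000 across the 4 groups, Klf1 at 2.85, 3.78, 4.73 and 6.83, and Epor at 1.26, 1.56, 1.77 and 1.75. The last Gata1 value was carried by F0_9 (3.13, 51 UMIs), as F0_8 alone stood at 1.55 (12 UMIs), below its 1.82 and 1.71 in the 2 groups before. Tal1 went from 1.07 to 4.33 and Tfrc from 1.76 to 7.37. In the 3 cells with 60% or more globin Gata1 was at 6.09 (3.15 to 10.6, 12 UMIs), Klf1 at 10.7, Tal1 at 8.12, Epor at 3.55 and Tfrc at 15.7. As the UMIs outside globin fell along these groups, from a median of 36667 per cell under 2% to 11811 at 30 to 60% (both red cell types and all suspensions pooled), the count per cell moved differently. Gata1 was at 4.26, 5.26, 3.68 and 3 UMIs per cell across the 4 groups and at 4 in the 3 cells above. Klf1 was at 9.65, 11.6, 9.82 and 7.81, and at 7 in the 3 cells above. Both were thus highest at 2 to 10% globin among the 4 groups. Alas2 was at 0.174, 4.26, 11.7 and 17.6, and at 27.7 in the 3 cells above. Tfrc per cell was at 5.96, 11.03, 13.03 and 8.43, with the highest count at 10 to 30% globin, and at 10.3 in the 3 cells above.

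**Figure D3:**
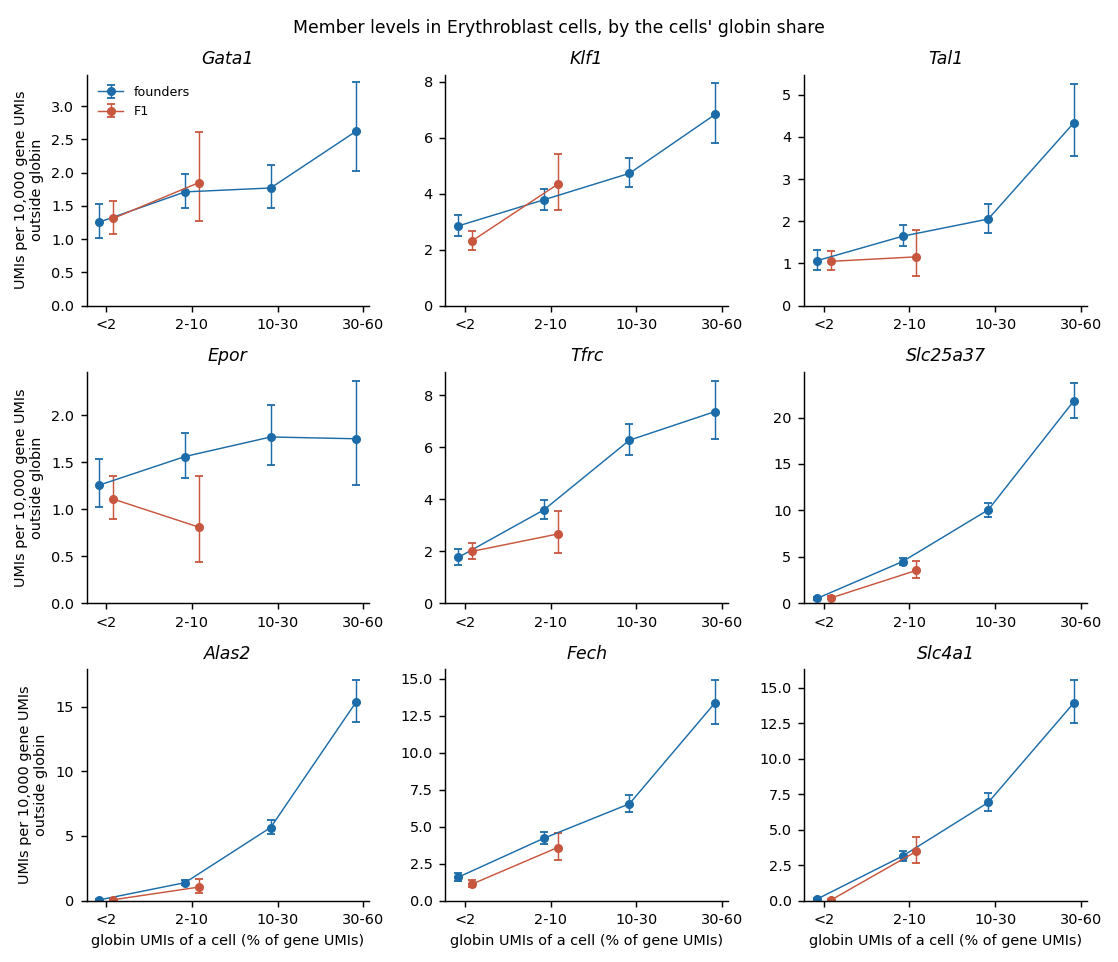
Levels of the 9 genes in UMIs per 10000 gene UMIs outside globin genes in Erythroblast cells grouped by the percentage of globin among a cell's gene UMIs, for founders (F0_8 and F0_9) and for F1 cells in the 2 groups that held more than 1 F1 cell (20 and 6 cells); bars are exact Poisson 95% intervals. Alas2 starts at 0.0513 in founders and reaches 15.4, while Gata1 goes from 1.26 to 2.62, the last value being 1.55 in F0_8 alone and 3.13 in F0_9.

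Founder and F1 Erythroblast cells were compared next. With TMM, 6.10% of 7473 genes passed, 4.15% higher and 1.95% lower in founders. Of the 9 members, 7 were called, all higher in founders: Alas2 (3.35 ± 0.24, adjusted p = 0.000710), Slc4a1 (2.64 ± 0.36), Slc25a37 (2.47 ± 0.24), Fech (1.81 ± 0.31), Tfrc (1.17 ± 0.22), Tal1 (0.88 ± 0.18) and Klf1 (0.79 ± 0.18, adjusted p = 0.0390). Gata1 (0.40 ± 0.17, adjusted p = 0.189) and Epor (0.74 ± 0.25, 0.115) were not, though Epor was called without F1_mix (1.62, adjusted p = 0.00877) and with no filter on low counts (0.79, 0.00286). The call of Klf1 was lost without F1_1 (adjusted p = 0.0518), which held 7 cells, and that of Tal1 without F0_9 (0.149) or F1_mix (0.0554). Scaled by all gene UMIs, 12.7% of genes passed, 2.42% higher and 10.2% lower, around a median of -0.33, and 5 members were called higher in founders, with Klf1 (0.46, adjusted p = 0.113) and Tal1 (0.55, 0.0618) no longer called. DESeq2 called Alas2, Slc25a37, Tfrc and Klf1.

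The F1 Erythroblast cells had less globin. Of F1 Erythroblast cells 20 of 28 had under 2% globin, against 23 of 116 in founders. Restricted to cells under 2% in every suspension (14, 9, 6 and 14 cells), an alternative added after the values were seen, edgeR called 0.0189% of 5305 genes, or 1 gene, with 247 at an unadjusted p under 0.05, and none of the 7 members tested. Their log2 differences ran from -0.16 for Slc25a37 to 0.59 for Fech, and Alas2 and Slc4a1 were too low to be tested, at 4 and 8 UMIs in founders and 5 and 2 in F1. In cells of 2 to 10% globin F1 was 6 cells of F1_mix alone, beside 35 founder cells. There founders and F1_mix stood at 1.39 and 1.04 UMIs per 10000 for Alas2, 3.14 and 3.47 for Slc4a1, 4.48 and 3.53 for Slc25a37 and 4.21 and 3.58 for Fech. The receptor genes stood at 1.56 and 0.809 for Epor and 3.59 and 2.66 for Tfrc, and the factor genes at 1.71 and 1.85 for Gata1, 3.78 and 4.33 for Klf1 and 1.65 and 1.16 for Tal1, and the intervals of founders and F1_mix overlapped for each of the 9 genes. For Epor the overlap was narrow, 1.33 to 1.82 in founders and 0.442 to 1.36 in F1_mix. These sets hold fewer cells than the whole contrast, so a call lost in them does not show that a difference is absent. Whether globin share or generation goes with the difference between founders and F1 was not tested.

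In Erythrocyte, 15.1% of 1819 genes passed between founders and F1, 9.68% higher and 5.39% lower in founders. Fech (1.32 ± 0.30, adjusted p = 0.00849), Slc4a1 (1.11 ± 0.32), Alas2 (1.10 ± 0.27) and Slc25a37 (1.05 ± 0.29) were called higher in founders. With all gene UMIs none of these was called, at log2 differences of 0.20 to 0.42, while Epor (-1.59, adjusted p = 0.0269) and Tfrc (-1.25, 0.0438) were called lower in founders. DESeq2 called Alas2 and Fech but not Slc4a1 (adjusted p = 0.0710) or Slc25a37 (0.0510). With all gene UMIs 36.7% of genes passed, 3.08% higher and 33.6% lower, around a median of -0.92. Leaving out F0_8 or F1_1 also ended all 4 calls with TMM (adjusted p = 0.0510 to 0.332), and leaving out F0_9 ended that of Slc25a37 (0.0781). With no filter on low counts none of the 4 was called. Globin shares were higher in founder Erythrocyte cells, 75.2% and 80.9% against 59.2% and 63.8%, beside these differences.

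**Figure D4:**
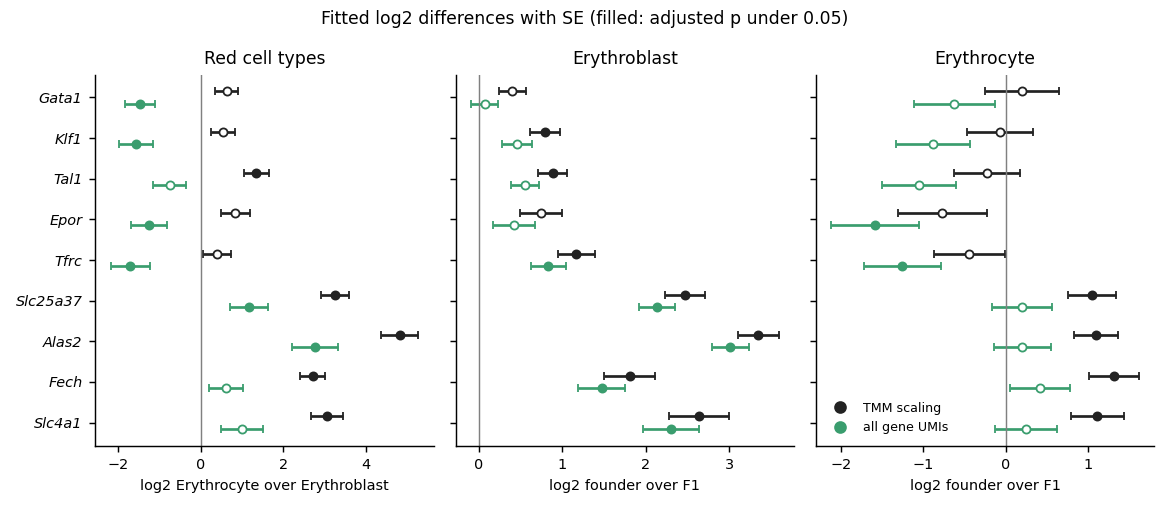
Log2 differences fitted by edgeR with their SE for Erythrocyte over Erythroblast and for founder over F1 in each type, with TMM scaling and with all gene UMIs as library size; filled points have an adjusted p under 0.05. In the left panel Gata1, Klf1, Tal1, Epor and Tfrc move from above to below 0 between the scalings (Tfrc from 0.39 to -1.71), and Alas2 stays above at 4.82 and 2.77.

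The type difference itself differed between generations for 4 members. The interaction was called for 3.46% of 4568 genes, 2.76% with a smaller Erythrocyte minus Erythroblast difference in founders and 0.701% with a greater one. All 4 members called were smaller in founders: Alas2 (-2.31 ± 0.48, adjusted p = 0.000310), Slc4a1 (-1.84 ± 0.45), Tfrc (-1.67 ± 0.47, adjusted p = 0.0178) and Slc25a37 (-1.50 ± 0.44). For Alas2 the pooled level outside globin went from 3.56 to 36.0 in founders (10.1 times) and from 0.394 to 19.2 in F1 (48.7 times). Tfrc alone of these changed in opposite directions, at 0.390 and 0.623 times in F0_8 and F0_9 and 1.72 and 1.67 times in F1_1 and F1_mix. Epor (-1.59 ± 0.56, adjusted p = 0.0933) and the other members were not called.

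Outside the red cells the 9 genes were scarce, but not equally so. The red cell types held 98.1% of all Slc4a1 UMIs, 95.4% of Gata1, 95.02% of Klf1, 92.9% of Alas2, 89.3% of Epor, 83.9% of Slc25a37, 71.0% of Tal1, 68.4% of Fech and 48.0% of Tfrc, from 204 of the 5678 cells. Free RNA from broken cells reaches other droplets. Its share was estimated as the globin UMIs of each type times a member's UMIs per globin UMI in near-empty droplets, which are barcodes assigned to no suspension that hold 100 to 300 gene UMIs. These droplets also hold RNA of other cells, so the estimate is not of red cell RNA alone. For Tfrc it gives 415 UMIs per 37551 globin UMIs. The red cells held 1547 Tfrc UMIs beside 468664 globin UMIs in Erythroblast and 1075081 in Erythrocyte. The 34 Slc4a1 UMIs in other types compare with 52.0 expected from free RNA in this way (32.1 with barcodes of 1 to 100 UMIs), 35 of Gata1 with 26.0 (11.3) and 84 of Klf1 with 57.5 (28.0). The estimate leans on 2 cells. Of the 37551 globin UMIs in other types, 1 Myoblast/Cardiomyocyte cell of F0_9 held 16217 and 1 Hematoendothelial Progenitor/Endothelium cell of F1_1 held 12234, which was 26.0% and 26.2% of the UMIs of these cells. Both also held member UMIs, 6 of Slc4a1 in each. Without these 2 cells, an alternative added after values were seen, Slc4a1 had 22 UMIs against 12.6 expected, Gata1 33 against 6.31 and Klf1 75 against 13.9. Of those 22 Slc4a1 UMIs 8 were in 1 Endodermal Progenitor cell of F1_mix with 1174 UMIs, 305 of them globin. In the 12 types other than those of the 2 cells, Slc4a1 had 20 UMIs against 10.5, the same 8 among them, Gata1 12 against 5.24, 4 of them in 1 cell, and Klf1 56 against 11.6. Over all cells of the 14 types, Tfrc (1679 UMIs against 415), Fech (1007 against 221), Tal1 (319 against 58.9), Alas2 (171 against 47.9), Slc25a37 (568 against 262) and Epor (76 against 38.3) lay above the estimate.

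Without the 2 globin-rich cells, Fech and Alas2 exceeded both free RNA estimates in all 14 other types, Tfrc in 13, the exception being Endodermal Progenitor with 4 UMIs against 5.88, and Slc25a37 in 12. For Alas2 this rests on few UMIs, 1 in Endodermal Progenitor against 0.679 expected, 1 in Hematoendothelial Progenitor/Endothelium and 2 each in Foregut and Ependymal Cell. The 1 UMI in Endodermal Progenitor was in the F1_mix cell with 305 globin UMIs, so that type depends on 1 globin-rich cell. Alas2 levels in the 14 types ran from 0.0110 to 0.0992 UMIs per 10000 with all cells included. With the 2 cells kept, Hematoendothelial Progenitor/Endothelium fell below for all 4 of these genes. It had 38 Tfrc UMIs against 137, 32 of Fech against 72.9, 36 of Slc25a37 against 86.4 and 12 of Alas2 against 15.8. The 1 cell set these expected values. Without it the type had 36 against 1.92 for Tfrc, 21 against 1.02 for Fech, 24 against 1.21 for Slc25a37 and 1 against 0.222 for Alas2. The levels ran, for Tfrc, from 0.111 UMIs per 10000 in Chondrocyte to 0.489 in Foregut and, for Fech, from 0.0873 in Neuronal Progenitor to 0.271 in Endodermal Progenitor, against 3.63 and 4.15 in Erythroblast. The next neighbours below Foregut for Tfrc, Epithelial Cell at 0.473 (0.321 to 0.559 over suspensions) among them, overlapped it over suspensions (0.211 to 0.713). The highest Fech value rests on 6 UMIs (0.0995 to 0.590, and 0 to 0.461 over suspensions), 2 of them in the cell with 305 globin UMIs. It overlapped Epithelial Cell at 0.252 and the lowest type, Neuronal Progenitor (0.0557 to 0.108 over suspensions). As background, Tfrc and Fech serve iron uptake and heme synthesis in cells of every kind. In Hematoendothelial Progenitor/Endothelium, Gata1 had 22 UMIs and Tal1 44, of which the globin-rich cell held 2 and 1, while all 6 of Slc4a1 and all 6 of Klf1 were in that cell. In Endodermal Progenitor, Tal1 had 16 UMIs, all in 1 cell of F1_mix of 10237 UMIs, which also held 4 of Gata1, 3 of Epor, 0 of Klf1 and 38 globin UMIs.

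Of the factor members, Tal1 had the most UMIs in 2 of the neural types. It had 145 UMIs in CNS Neuron, in 27 of 532 cells, where free RNA would give 1.26, and 89 in Neuroectoderm/Glia, in 36 of 502 cells, where it would give 1.16. Every suspension had such cells, 8, 12, 3 and 4 in CNS Neuron and 10, 11, 9 and 6 in Neuroectoderm/Glia. Gata1 had 0 UMIs in CNS Neuron, which by the limit of 3 counts allows a level of up to 0.00491 UMIs per 10000, and 1 in Neuroectoderm/Glia, while Klf1 had 7 and 5. In Neuronal Progenitor Tal1 had only 3 UMIs in 597 cells, against 15 of Klf1, and in Ependymal Cell both had 2. UMIs of other GATA factors were more frequent in the cells with Tal1. Of the 27 CNS Neuron cells 74.1% had a Gata2 UMI and 85.2% a Gata3 UMI, against 2.97% and 1.39% of the 505 without Tal1, and of the 36 Neuroectoderm/Glia cells 61.1% and 91.7%, against 1.29% and 2.79% of 466. The split by Tal1 and both genes were chosen after values were seen, and no test was made. The median depths were 8792 and 10980 UMIs with and without Tal1 in CNS Neuron, and 11810 and 11400 in Neuroectoderm/Glia. As background, TAL1, GATA2 and GATA3 are known together from inhibitory interneurons of the spinal cord and hindbrain.

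**Figure D5:**
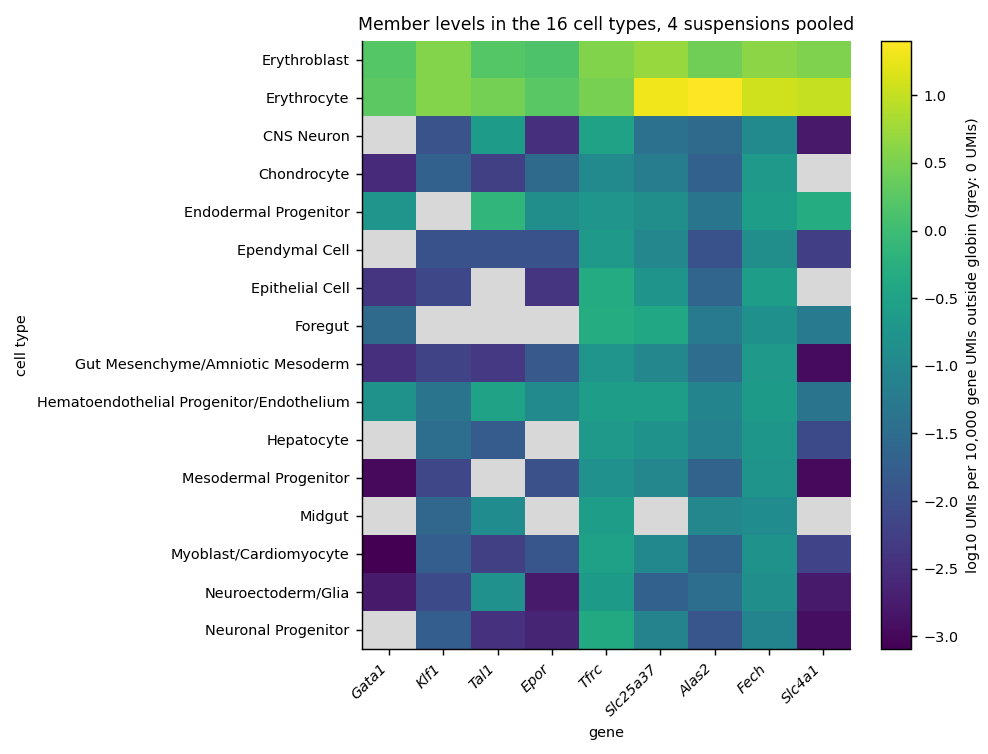
Levels of the 9 genes in the 16 cell types of the authors' annotation, 4 suspensions pooled, as log10 of UMIs per 10000 gene UMIs outside globin genes; grey marks 0 UMIs. The red cell types stand out for every gene, Tfrc, Fech and Alas2 have UMIs in all 16 types, and the highest Tal1 levels outside red cells are in Endodermal Progenitor (16 UMIs in 1 cell), Hematoendothelial Progenitor/Endothelium, CNS Neuron, Neuroectoderm/Glia and Midgut (0.124, from 5 UMIs in 4 cells).

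For 7 of the 9 members a related gene was listed, and none for Epor and Fech. Gata2, the GATA factor of progenitors, had 11 UMIs in Erythroblast and 0 in Erythrocyte, against 631 and 88 of Gata1. Alas1, the ALAS of other tissues, had 31 UMIs in Erythroblast and 0 in Erythrocyte, where a count of 0, by the same limit of 3 counts, allows a level of up to 0.0629 UMIs per 10000 outside globin, against 1045 and 1205 of Alas2. Slc25a28, or mitoferrin 2, had 80 and 9 UMIs, Tfr2, the second transferrin receptor, 157 and 10, and Slc4a2, an anion exchanger of other tissues, 16 and 5. None of these 5 passed the filter for the type test. Lyl1, the relative of Tal1, had 241 and 54 UMIs and stood at 0.551 to 0.858 UMIs per 10000 in Erythroblast and at 1.004 to 1.32 in Erythrocyte, a TMM log2 difference of 1.26 ± 0.32 (adjusted p = 0.00939) that turned to -0.81 with all gene UMIs. Klf3, a KLF factor that represses, had 392 and 77 UMIs, with a TMM difference of 1.64 ± 0.30 that turned to -0.46. In the founders-only comparison neither Lyl1 nor Klf3 was called.

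The genes whose pattern was most like a member's were, for most members named here, other red cell genes. Over 64 sums of cell type and suspension and among 12086 genes, Slc4a1 was close to Rhag (Pearson's r = 0.974), Alas2 closest to Epb42 (0.961) and Trim10 (0.957), and Slc25a37 closest to Kel (0.957). Gata1 was closest to Gfi1b (0.979) and Epor (0.969), Epor to Gata1 and Steap3 (0.956), and Klf1 to Cldn13 (0.961) and Icam4 (0.949). Tal1, at 0.906 with Gmpr and 0.902 with Gata1, and Tfrc, at 0.862 with Mt2 and 0.860 with Icam4, had looser matches. The sums share 1 library, and a gene seen only in red cells resembles any other such gene on this measure.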

How the data were processed

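Raw UMI counts per gene and barcode were deposited by the authors for each suspension, made per the file headers with Cell Ranger 7.2.0, and were used as deposited. Their cell table, made after removal of doublets, gave suspension and cell type, and no further doublet caller was run. Counts were summed per cell type and suspension. Depth was 16052917 to 19160116 gene UMIs per suspension. Sums were tested with edgeR 4.0.16 in R 4.3.3 (quasi-likelihood, filterByExpr, TMM, Benjamini-Hochberg over all genes tested). Suspension was a block in the type contrast, since both types came from the same embryos. DESeq2 1.42.0, other library sizes, no filter on low counts and leaving out each suspension were alternatives. Scripts were tested on simulated counts. An exact permutation test of 2 against 2 suspensions cannot pass a threshold of 0.05, so p-values rest on the model. From each other list at most the 4 called genes with the greatest difference between the types are named, and Cpox, Gata3 and single cells were singled out after their values were seen. The members and lists were chosen with earlier results of these data known. A few genes of the lists and of the closest patterns are not reported here. EGFP and the multiplexing oligo counts were not used here.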

Additional observations from a re-analysis of the deposited data

Results flagged for a closer look

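For 4 members the Erythrocyte minus Erythroblast difference was smaller in founders than in F1 by the interaction test of edgeR (2 suspensions of each, TMM scaling): Alas2 (log2 -2.31, adjusted p = 0.000310), Slc4a1 (-1.84, 0.00380), Tfrc (-1.67, 0.0178) and Slc25a37 (-1.50, 0.0240). With library sizes outside globin all 4 kept their direction and call. Erythroblast globin shares were 12.3% and 15.7% in founders against 0.830% and 2.08% in F1 beside these, and their part was not tested. This test was not run without single suspensions. In 36 sets of 4 levels, no suspension stood apart from the other 3 by Dixon's limit.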

How the results depend on the processing

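Counts of called genes moved with the scaling, filter and suspensions used, and the cause was not tested. The type contrast called 1096 genes (579 higher, 517 lower), 4180 with all gene UMIs (60 and 4120), 1267 outside globin (368 and 899), 652 in the founders-only comparison and 556 to 1127 without single suspensions, the fewest without F1_mix and 631 without F0_9. Founder against F1 in Erythroblast called 456 genes, 946 with all gene UMIs, 203 by DESeq2, 947 with no filter, 1 in cells under 2% globin and 285 (without F0_9) to 610 without single suspensions. In Erythrocyte it called 274 genes, 668 with all gene UMIs, 117 by DESeq2, 179 with no filter, when no member was called, and 78 (without F0_8) to 283 without single suspensions, with 157 without F1_1. Without the replicate block the type contrast called 964 genes and the same 5 members, and the block changed no other member's call.

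With all gene UMIs the type difference reversed for Gata1 (-1.45), Klf1 (-1.55), Tal1 (-0.74), Epor (-1.26), Tfrc (-1.71), Cpox (-1.42, called lower), Ppox (-0.44), Abcb10 (-0.34), Glrx5 (-0.79), Iscu (-0.84), Slc40a1 (-0.59), Blvrb (-0.34), Bach1 (-0.55), Lyl1 (-0.81) and Klf3 (-0.46). In the founders-only comparison it reversed for Klf1 (-0.31), Epor (-0.30), Cpox (-0.45) and Tfrc (-1.22), and for Tfrc also outside globin (-0.034) and outside globin and mitochondrial genes (-0.042). Founder against F1 reversed in Erythroblast cells under 2% globin for Gata1 (-0.048), Tfrc (-0.11) and Slc25a37 (-0.16), and in Erythrocyte with all gene UMIs for Gata1 (-0.62). Without single suspensions the Erythrocyte values of uncalled members crossed 0: Gata1 -0.30 to 0.45, Klf1 -0.60 to 0.32, Tal1 -0.49 to 0.025, Epor -1.23 to 0.14 and Tfrc -0.97 to 0.070. Erythrocyte of F0_8 had 45301 UMIs outside globin, and Erythroblast of F1_1 only 8 UMIs of Alas2 and 5 of Slc4a1, which limits both values.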
